A study of Hydra vulgaris with 12 samples.

Results

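In the freshwater polyp Hydra vulgaris, strain AEP, 58 of 38747 transcripts (0.150%) had many capless 5′ ends in 2 kinds of animal. They also stayed under set limits in the 4 piRNA measures used to set them apart. They were chosen by measured values, in CPM, that is, counts after the total of a library or strand is scaled to 1000000. A transcript had to stay under 1 CPM of antisense RNA bound by Hywi and under 50 CPM of sense RNA bound by Hyli, in colchicine-treated and in wild-type animals. It also had to reach at least 50 CPM in both degradome libraries, which sample capless RNA ends. At most 200 transcripts were to be kept, ranked by the smaller of their degradome values, and all 58 that passed were kept. The chosen values are therefore described here without a test.

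PIWI proteins such as Hywi and Hyli carry short guide RNAs, the piRNAs, and cut RNAs that pair with them. In the ping-pong cycle, a PIWI protein carries guides antisense to a target, and the cut pieces of that target become sense piRNAs in another PIWI protein. A cut leaves a 3′ piece with no cap at its 5′ end, and such ends also form when a cap is removed or a transcript is broken in normal turnover. Degradome sequencing ligates an adapter to capless ends of poly(A) RNA. It can collect ends from each of these sources, as far as the adapter can be joined to them.

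The study's title concerns repression of transposons by this pathway in the somatic stem cells of Hydra. Its mRNA-seq compared 3 libraries of hywi knockdown animals with 3 libraries of wild-type siblings, all collected 4 days after hatching, with 10 whole animals pooled per library. Knockdown animals were offspring of the hywi RNAi-1 line with a transgene whose hairpin RNA targets hywi and whose expression is in epithelial stem cells. The siblings were offspring of the same line without it. Small RNA bound to Hywi and to Hyli (immunoprecipitation, IP, of 225 animals) and degradomes (20 animals) came from colchicine-treated and from wild-type whole animals, with 1 library per measure and condition. Colchicine-treated animals are depleted of interstitial cells, the lineage of nerve, stinging, gland and germ cells, and are left with mostly epithelial cells. They were also of the cnnos1::GFP transgenic line, so treatment and line cannot be told apart. All animals were of the AEP strain and kept at the same culture temperature. In whole-animal RNA, fewer cells of a type and less RNA per cell cannot be told apart.

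The degradome libraries held 176897 counts in colchicine-treated and 765341 counts in wild-type animals, and the mRNA libraries held 22.2 to 27.6 M counts (M stands for 1000000). The IP libraries held 2.72 to 28.8 M counts per strand. Transcript names are not paired with gene names in the files, and 0 of 38747 matched the reference gene table, so transcripts carry only their names. Their sequences, roles and lengths, the hywi transcript and markers of cell types were not analysed here. CPM values are not per length, and a longer transcript can collect more counts of any kind.

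The minimum of 50 CPM corresponded to 8.84 counts in the colchicine and 38.3 counts in the wild-type degradome. Just inside lay t3957aep, with 9 counts in colchicine-treated and 39 in wild-type animals (50.9 and 51.0 CPM). Beside it lay t5479aep, with 9 and 71 counts. Just outside lay t23139aep, with 116 counts in colchicine-treated and 38 in wild-type animals, and t23845aep, with 16 and 38 counts. In all, 7 of the 58 transcripts were tied at 9 colchicine counts, so 1 count fewer would have left them out. Of the 26995 transcripts within the limits on piRNA, 347 reached the degradome minimum in colchicine-treated animals alone and 76 in wild-type animals alone.

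Most transcripts with many capless ends lay above the limits on piRNA. Of 1000 transcripts with at least 50 CPM in both degradomes, 58 (5.80%) were within the limits and 942 were over a limit. Among those 942, 828 were over limits of both kinds, 59 were over the Hywi antisense limit alone and 55 over the Hyli sense limit alone. The 942 transcripts and the 974 with at least 100 CPM of mRNA, few capless ends and piRNA within the same limits serve below as comparison sets.

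A high mRNA level, which the selection did not use, was common among the 58 transcripts. Their median was 829 CPM in the hywi knockdown and 867 CPM in wild-type siblings, with quartiles of 328 and 2527 CPM in the siblings. In the siblings, 49 of the 58 averaged at least 100 CPM, against 1720 of all 38747 transcripts (4.44%). At least 1000 CPM was reached by 25 of the 58, against 156 of all transcripts (0.403%). Together the 58 transcripts held 7.43, 8.06 and 8.03% of the counts of the 3 knockdown libraries and 7.995, 8.24 and 8.67% of those of the 3 sibling libraries. They held less of the degradomes, with 0.832% in colchicine-treated and 0.616% in wild-type animals. The other 942 transcripts rich in capless ends had a median of only 3.05 CPM of mRNA in the siblings. Within the same piRNA limits, the 76 transcripts at the degradome minimum in wild-type animals alone had a median of 500 CPM. For the 347 at the minimum in colchicine-treated animals alone it was 82.1 CPM.

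The highest mRNA levels were those of t35773aep, t20047aep, t30017aep, t6234aep and t6774aep. Transcript t35773aep had 5616, 6043 and 5527 CPM in knockdown libraries and 6154, 5836 and 5888 CPM in sibling libraries. Transcript t20047aep had 3810, 4441 and 4702 CPM in knockdown and 4474, 4842 and 4933 CPM in sibling libraries. In both, the 2 groups overlapped. Transcripts t30017aep, t6234aep and t6774aep averaged 3860 ± 409, 3934 ± 173 and 3821 ± 47.1 CPM in the knockdown and 4262 ± 176, 4044 ± 267 and 4029 ± 112 CPM in siblings (SD, n = 3 each). The median coefficient of variation among siblings was 7.43% over the 58 transcripts.

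At the other end, 3 of the 58 transcripts averaged under 1 CPM of mRNA in the siblings and 6 lay between 1 and 100 CPM. Transcript t21234aep had 0.146, 0.111 and 0.0736 CPM in knockdown libraries, and in sibling libraries it was listed at 0 once and otherwise at 0.145 and 0.0390 CPM. Transcript t34873aep had 0.402, 0.185 and 0.331 CPM in knockdown and 0.270, 0.363 and 0.273 CPM in sibling libraries. Transcript t26088aep had 0.695, 0.740 and 0.515 CPM in knockdown and 0.899, 0.762 and 0.507 CPM in sibling libraries. All 3 were close to the bottom of detection in every library, and the 2 groups overlapped in each. Next came t12935aep, with 36.8 ± 4.12 CPM in the knockdown and 32.6 ± 6.36 CPM in siblings, and t24687aep, described with the knockdown.

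Most of the 58 transcripts had fewer capless than mRNA CPM. Capless CPM stayed below mean sibling mRNA CPM for 47 of 58 transcripts in the colchicine degradome and for 50 of 58 in the wild-type degradome. The median log2 ratio of capless to mRNA CPM, with 1 CPM added to each, was -3.08 in colchicine-treated and -3.32 in wild-type animals. In the 942 transcripts over a piRNA limit it was 5.48 in colchicine-treated and 5.67 in wild-type animals, and capless CPM was above mRNA CPM for 867 and 851 of them. In the 974 transcripts with few capless ends it was -5.64 and -5.20. Most of the 942 had little mRNA. Among the transcripts with at least 100 CPM of mRNA over 6 libraries, the median was -3.70 in colchicine-treated and -3.61 in wild-type animals for 50 of the 58, and -2.28 and -2.56 for 100 of the 942. Over all 1749 transcripts at that mRNA level it was -4.22 and -4.50, so the 50 lay above this level and below the 100. Low or high capless counts define all of these sets but the 1749, and no test applies. Degradome and mRNA came from different animals, and the ratio has no absolute scale.

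**Figure D1:**
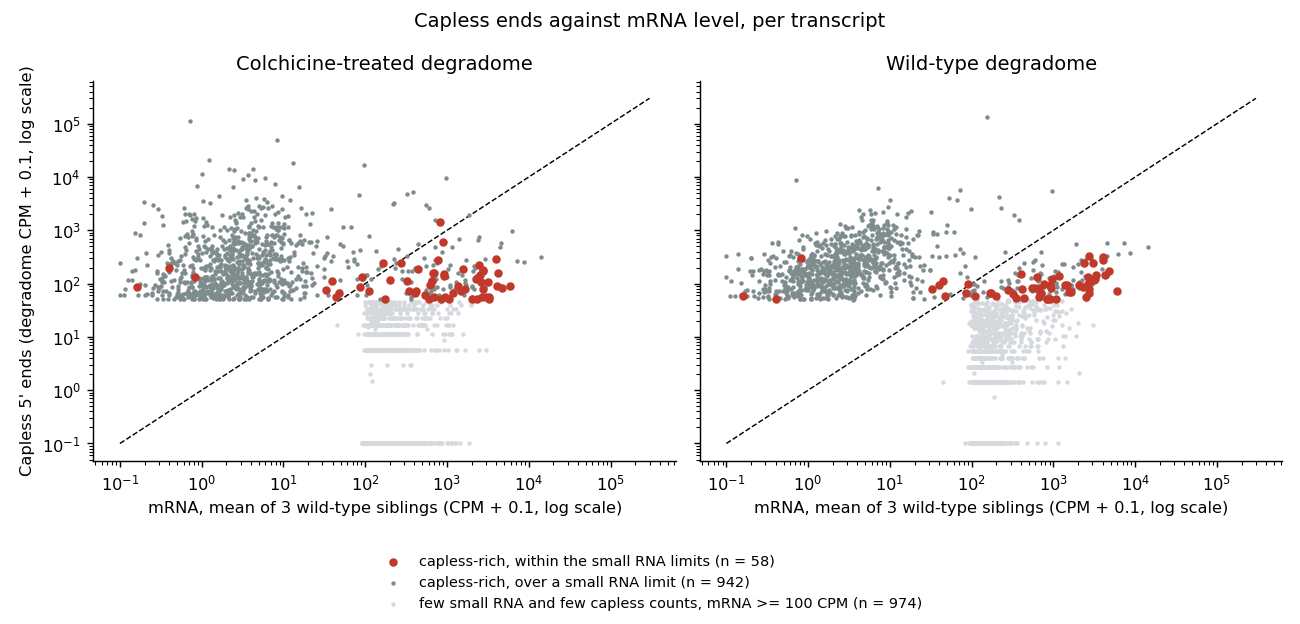
Capless 5′ ends (vertical axis, degradome CPM plus 0.1, log scale) against mRNA level (horizontal axis, mean CPM of 3 wild-type siblings plus 0.1, log scale), in colchicine-treated (left) and wild-type animals (right). Each point is 1 transcript and the dashed line marks equal CPM: most of the 58 transcripts (red) lie below the line at high mRNA, whereas most of the 942 over a piRNA limit (dark grey) lie above it at low mRNA; the 974 transcripts with few capless ends are in light grey.

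For 8 of the 58 transcripts, named after their values were seen, capless CPM was above mRNA CPM in both degradomes. The gap was widest in the 3 transcripts with under 1 CPM of mRNA. Transcript t26088aep had 24 capless counts in colchicine-treated and 233 in wild-type animals (136 and 304 CPM), 421 times its sibling mRNA CPM in the wild-type degradome. Transcript t21234aep had 15 and 44 capless counts, and t34873aep had 34 and 40. The other 5 were t34606aep, t24687aep, t12935aep, t34991aep and t8573aep, with wild-type ratios of capless to mRNA CPM between 1.09 (t34606aep) and 2.49 (t8573aep). The ratio of t24687aep, 2.38, rested on sibling 1, and was 11.6 without that library and 0.917 against it alone. Transcripts t26291aep, t1932aep and t12590aep had more capless than mRNA CPM in the colchicine degradome alone.

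Capless counts of the 58 transcripts ranged from 50.9 to 1419 CPM in the colchicine degradome (median 90.4) and from 51.0 to 328 CPM in the wild-type degradome (median 83.0). The transcript ranked first, t6774aep, had 51 counts in colchicine-treated and 237 in wild-type animals (288 and 310 CPM). The second, t15075aep, had 32 and 251 counts (181 and 328 CPM), and the third, t30017aep, had 28 and 111.5 counts (158 and 146 CPM). These 3 transcripts had mRNA levels above 1000 CPM, and in each the capless CPM was a small part of the mRNA CPM. After t26088aep, the fourth, came t15600aep with 107 CPM in colchicine-treated and 118 CPM in wild-type animals and t34606aep with 136 and 99.3 CPM. The next 4 were t28475aep (283 and 98.0 CPM), t19447aep (107 and 96.7 CPM), t14019aep (96.1 and 133 CPM) and t24687aep (110 and 94.1 CPM). Within these 10, the colchicine value was higher in 5 transcripts and the wild-type value in 5.

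Across the 58 transcripts the 2 degradomes did not put them in a common order. The rank correlation of their CPM was -0.12 (Spearman's rho, n = 58 transcripts, which share the same 2 libraries and were all selected to lie above the same minimum). The mRNA level ranked the transcripts with the wild-type degradome at a rho of 0.43, and with the colchicine degradome at -0.03. In the 974 transcripts with few capless ends those 2 values were 0.29 for wild type and 0.13 for colchicine.

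The colchicine degradome had the higher CPM for 31 of the 58 transcripts and the lower CPM for 27, with a median log2 ratio of 0.16. Its CPM was higher for 51.6% of the 1000 transcripts with many capless ends. Intervals for counting error alone (95%, exact) lay above a ratio of 1 for 16 of the 58, against a background of 36.3%, and below 1 for 13, against 33.1%. These values also fed the selection, so nothing is read from the counts. They depend on how the libraries are scaled. The 2 largest transcripts of the wild-type degradome held 38.2% of its counts and 0.0251% of the colchicine counts. With totals that leave them out, 18 of the 58 were higher and 40 lower in colchicine-treated animals, the median was -0.53, and 34.1% of the 1000 transcripts were higher.

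A difference of at least 4-fold, with 1 CPM added to each value, was seen for 2 transcripts in each direction, where the background over the 1000 transcripts was 13.9% higher and 10.3% lower. Transcript t12590aep had 251 capless counts in colchicine-treated and 40 in wild-type animals (1419 and 52.3 CPM), a ratio of 27.1 with a counting interval of 19.4 to 38.9. Transcript t8331aep had 107 and 71 counts (605 and 92.8 CPM), a ratio of 6.52 (4.78 to 8.93). Without t12590aep, the share of the 58 transcripts in the colchicine degradome was 0.690% in place of 0.832%. In mRNA, t12590aep had 732, 859 and 828 CPM in knockdown and 711, 895 and 876 CPM in sibling libraries. No mRNA library of colchicine-treated animals was analysed here. Next by ratio came t16847aep (226 and 56.2 CPM, 4.02-fold as it stands and under 4-fold once 1 CPM is added to each), t34873aep (192 and 52.3 CPM) and t26291aep (249 and 67.9 CPM).

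At the low end, t25680aep had 9 capless counts in colchicine-treated and 182.5 in wild-type animals (50.9 and 238 CPM), a ratio of 0.213 (0.0960 to 0.414). Transcript t5483aep had 10 and 183 counts (56.5 and 239 CPM), a ratio of 0.236 (0.111 to 0.445). Then followed t6234aep (90.4 and 280 CPM), t28720aep (50.9 and 145 CPM) and t36179aep (56.5 and 135 CPM). Of these 5, 4 had only 9 or 10 counts in the colchicine degradome, next to the minimum of 8.84. All 5 had mean sibling mRNA above 1000 CPM.

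**Figure D2:**
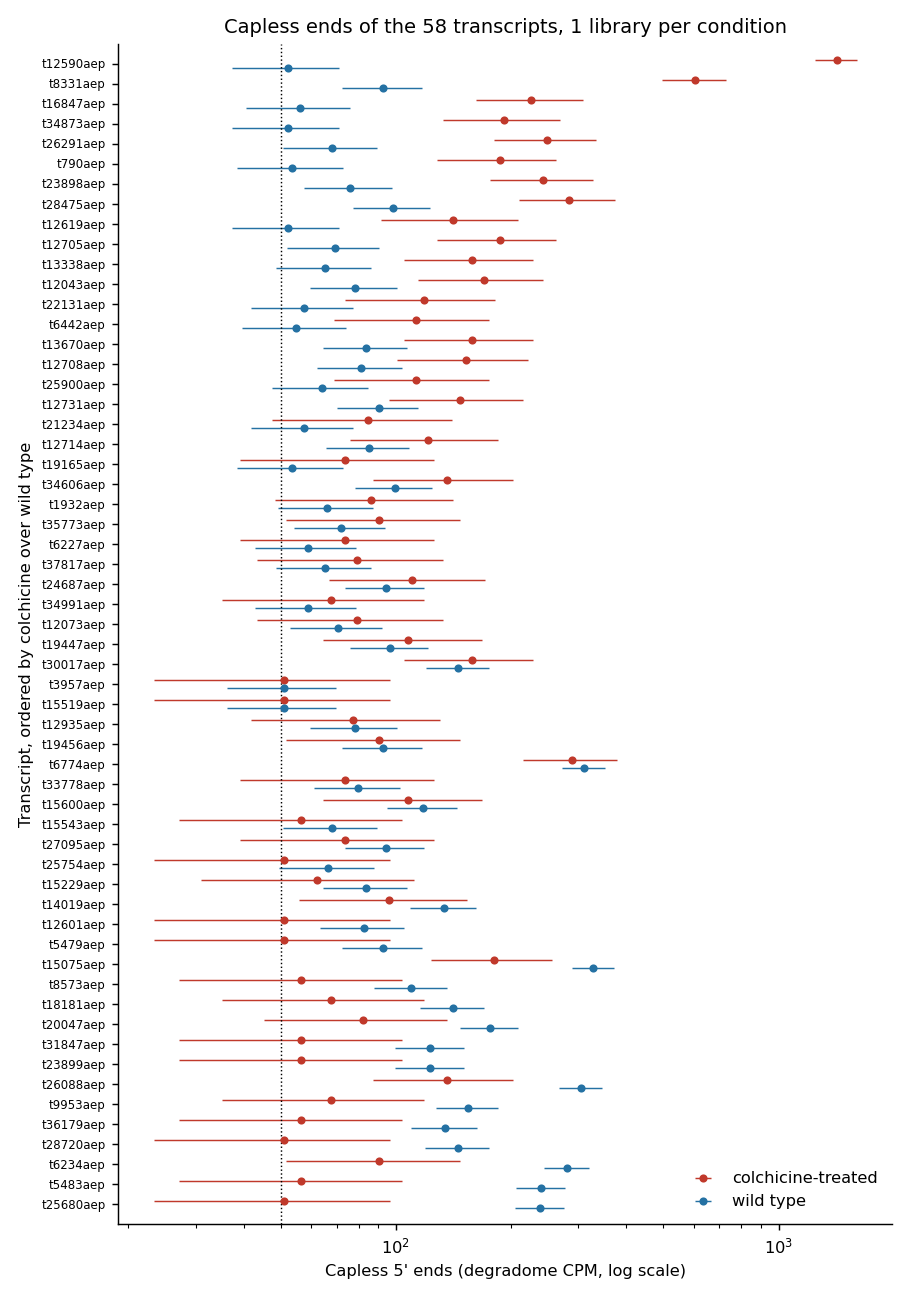
Capless 5′ ends (degradome CPM, log scale) of each of the 58 transcripts in colchicine-treated (red) and wild-type animals (blue), 1 library per condition, ordered from the highest to the lowest ratio of colchicine over wild type. Bars are exact 95% Poisson intervals for counting error and the dotted line is the 50 CPM minimum; t12590aep and t8331aep stand apart at the top, and many intervals of the shallower colchicine library cross the minimum.

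Values under the limits in the 4 measures used for selection did not mean that small RNA counts were missing. In the Hyli IP, sense counts had a median of 114 per transcript in colchicine-treated and 142 in wild-type animals, with highest values of 332 and 1276. In CPM these medians were 17.0 and 4.94, against 5.24 and 1.63 in the 974 transcripts with few capless ends. Over all transcripts the upper quartiles were 2.02 and 0.973 CPM. In CPM, the 58 were thus low on the Hyli sense strand only against the limit of 50 CPM. They also had more mRNA than the 974 (sibling medians of 867 and 169 CPM), and Hyli sense per mRNA was not computed. In the Hywi IP, antisense counts had a median of only 4.79 and 1.13 and never passed 14.1 and 14.2. The strand outside the rule was much fuller: Hywi sense counts had a median of 129 in colchicine-treated and 191 in wild-type animals, and reached 4677 and 2993. The sense strand held 98.7% of the Hywi counts of the 58 transcripts in colchicine-treated and 99.3% in wild-type animals, against 14.1% and 12.6% over all transcripts. This share follows in part from the rule, which limits the antisense strand. In the Hyli IP, where the rule limits the sense strand, sense counts made up 82.2% in colchicine-treated and 65.5% in wild-type animals, against 52.0% and 71.1% over all transcripts. The wild-type share leans on t34873aep and t21234aep, which held 2514 and 2220 of the 7130 Hyli antisense counts of the 58. Hyli sense counts exceeded antisense counts for 55 of the 58 in colchicine-treated and 53 in wild-type animals.

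On the Hywi sense strand the 58 transcripts had a median of 47.4 CPM in colchicine-treated and 68.0 CPM in wild-type animals. The 974 transcripts with few capless ends had 9.18 and 11.4 CPM. At least 100 CPM was reached by 17 of the 58 transcripts in colchicine-treated and 22 in wild-type animals, against 64 and 30 of the 974. The 58 also had more mRNA, with a sibling median of 867 CPM against 169 CPM in the 974, and per mRNA the difference was small. The median log2 ratio of Hywi sense to sibling mRNA CPM (with 1 CPM added to each) was -4.27 in colchicine-treated and -3.96 in wild-type animals for the 50 with at least 100 CPM of mRNA on average over 6 libraries. For the 974 it was -4.32 and -4.02. By Hywi sense CPM, the ranks of the 58 transcripts were similar in the Hywi IPs of the 2 conditions (rho 0.67, n = 58 transcripts). With mRNA their rho was 0.15 in colchicine-treated and 0.17 in wild-type animals, near the 0.12 and 0.20 of the 974. With capless ends it was 0.07 and 0.03, against 0.27 and 0.36 in the 974. The selection cut off capless values below the minimum, so these low values cannot show that a relation is absent.

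By the mean of both conditions, the highest Hywi sense value was that of t25900aep, with 4677 counts in colchicine-treated and 1492 in wild-type animals (1718 and 531 CPM). Second by this mean was t6774aep, also first by capless ends, with 563 and 2993 counts (207 and 1065 CPM). Then came t12708aep, with 2073 and 1171 counts (761 and 417 CPM). Transcripts t15075aep and t23898aep were above it in colchicine-treated animals, and t12619aep, t21234aep and t12705aep were among those above it in wild-type animals. Both t25900aep and t12708aep were higher in colchicine-treated animals, whereas t6774aep was higher in wild type.

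Hywi sense CPM was higher in colchicine-treated animals for 22 of the 58 transcripts and lower for 36. No share over all transcripts was computed for this split, so nothing is read from it. At least 10 CPM in the Hywi IP of either condition was reached by 55 of the 58. Of these, 5 were at least 4-fold higher, against a background of 14.3%, and 9 were at least 4-fold lower, against 30.2% of 7037 transcripts. Both counts were below the background shares. The 5 higher ones, named after their values were seen, were t15075aep (1031 CPM in colchicine-treated and 134 CPM in wild-type animals), t15543aep (272 and 43.4), t9953aep (308 and 51.5), t23898aep (897 and 174) and t6234aep (543 and 123). Among the 9 lower ones were t12619aep (29.0 CPM in colchicine-treated and 943 CPM in wild-type animals), t8573aep (6.24 and 163), t30017aep (8.51 and 50.5) and t6774aep. With 1 library per condition, these differences have no replicate check.

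The Hyli antisense strand, also outside the rule, held little. Its median was 1.56 CPM in colchicine-treated and 1.104 CPM in wild-type animals, against 1.71 and 0.977 CPM in the 974 transcripts with few capless ends. At least 10 CPM was reached by 5 of the 58 transcripts in colchicine-treated animals (t21234aep, t34873aep, t790aep, t25900aep and t12708aep). In wild-type animals 6 transcripts reached it (t34873aep, t21234aep, t12708aep, t19447aep, t6234aep and t23899aep).

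The transcripts t21234aep and t34873aep combined nearly no mRNA with piRNA counts on the 2 strands outside the rule. On the Hywi sense strand t21234aep had 105 counts in colchicine-treated and 1670 in wild-type animals (38.6 and 594 CPM), and t34873aep had 29 and 874 counts (10.7 and 311 CPM). On the Hyli antisense strand t21234aep had 412 and 2220 counts (67.0 and 189 CPM), and t34873aep had 288 and 2514 counts (46.8 and 215 CPM). On the strands the rule limits, their counts were at most 10.5 for Hywi antisense in colchicine-treated animals (t21234aep) and 14.2 in wild-type animals (t34873aep). Their Hyli sense counts were 13 and 17 for t21234aep, and for t34873aep 0 in colchicine-treated and 13 in wild-type animals. For both transcripts, then, the description as free of piRNA holds only for the strands that were limited.

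**Figure D3:**
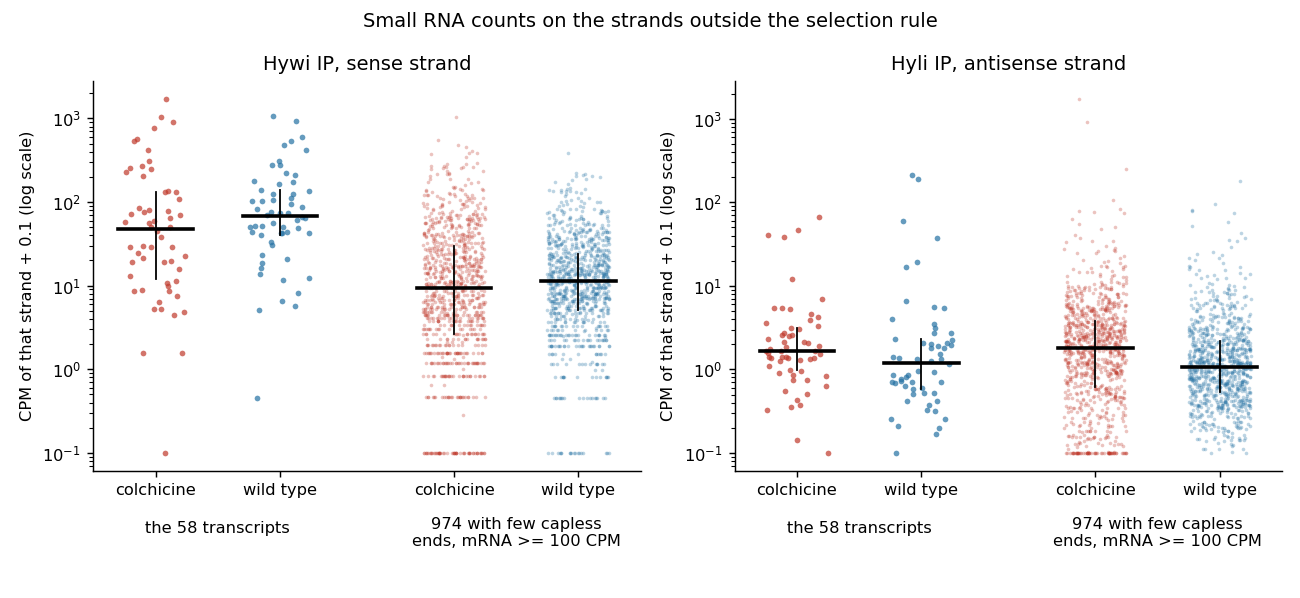
Small RNA on the 2 strands that the selection did not limit, Hywi sense (left) and Hyli antisense (right), as CPM of the strand plus 0.1 on a log scale, for the 58 transcripts and for 974 transcripts with few capless ends and at least 100 CPM of mRNA. Each point is 1 transcript, horizontal bars are medians and vertical bars the quartiles: on the Hywi sense strand the 58 lie higher (medians of 47.4 and 68.0 against 9.18 and 11.4 CPM), and on the Hyli antisense strand the medians are close to 1 CPM in both sets.

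The mRNA libraries were not used to choose the transcripts, so the comparison of hywi knockdown with wild-type siblings could be tested. It addresses how transcript levels differ once hywi is knocked down. Of the 58 transcripts, 56 passed the filter on low counts, and t21234aep and t34873aep did not. In edgeR (quasi-likelihood F test, Benjamini-Hochberg over all 19683 transcripts tested), 0 of the 56 were higher (background 0.0%) and 0 were lower (background 0.0%). The lowest adjusted p in edgeR was 0.875. Even before adjustment, 0 of the 56 higher (background 2.93%) and 0 lower (background 0.716%) had a p under 0.05. DESeq2 called 0 higher (background 0.0102%) and 0 lower (background 0.00508%), and before adjustment also 0 higher (background 1.83%) and 0 lower (background 0.645%). The labels do not say that replicates were separate cultures, so p-values measure the spread between these libraries.

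The replicate numbers of the 2 groups were taken to pair the libraries, because same-numbered libraries deviated together. Only number 1 stood clearly apart, since libraries 2 and 3 also deviated together across numbers (correlations of 0.20 and 0.15). Results with the block or within pairs rest on this pairing. With the number as a block, 1 of the 56 was higher (edgeR, Benjamini-Hochberg; background 1.17%) and 0 were lower (background 0.0914%). At an unadjusted p under 0.05 with the block, 2 were higher (background 8.51%) and 10 were lower (background 5.24%). Before adjustment, then, lower values took more than the background share of the 56 transcripts, and none of them passed the threshold. That background covers all tested transcripts, and no share was computed for abundant transcripts alone. DESeq2 with the block called 0 higher (background 0.777%) and 0 lower (background 0.208%), and before adjustment it had 2 higher (background 2.99%) and 19 lower (background 4.23%).

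The called transcript was t24687aep, number 10 by capless ends and among the 5 lowest by mRNA. It had 470.3, 172 and 15.0 CPM in knockdown replicates 1, 2 and 3 and 103, 9.77 and 6.44 CPM in sibling replicates 1, 2 and 3. Knockdown was higher in each of the 3 pairs, yet the groups overlapped, since sibling 1 lay above knockdown 3. Its log2 fold change was 2.49 ± 0.40 (SE) with an adjusted p of 0.00781 in edgeR with the block, and 2.41 ± 1.24 with an adjusted p of 0.875 without it. DESeq2 with the block gave an adjusted p of 0.159. Within pairs the log2 differences were 2.11, 4.11 and 1.06, and its coefficient of variation of 138% among siblings was the highest of the 58 transcripts. Without knockdown replicate 1 the log2 fold change was 1.26, and without sibling replicate 1 it was 4.61.

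In edgeR without the block, the smallest unadjusted p after that of t24687aep were those of t26291aep and t31847aep. Transcript t26291aep had 286, 201 and 183 CPM in knockdown and 212, 151 and 136 CPM in sibling libraries. It was higher in each pair, with overlapping groups, a log2 fold change of 0.34 ± 0.19 and an adjusted p of 0.875 in edgeR (0.127 with the block). Transcript t31847aep had 2573, 3040 and 2770 CPM in knockdown and 2963, 3151 and 3560 CPM in sibling libraries. It was lower in each pair, also with overlap, at -0.29 ± 0.16 and an adjusted p of 0.875 in edgeR (0.307 with the block).

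As a group, the log2 fold changes of the 56 transcripts lay slightly below those of all transcripts. Their median was -0.15, against 0.02 over all 19683 and -0.11 over the 1749 transcripts with at least 100 CPM of mRNA. It was -0.12 in the 974 transcripts with few capless ends and 0.22 in the 886 tested transcripts over a piRNA limit that were rich in capless ends. The 100 of those with at least 100 CPM of mRNA had a median of 0.00. The fold change was below 0 for 46 of the 56, against a background of 47.0%. In the 974 transcripts the upper quartile was -0.041, so most of these abundant transcripts were also below 0. Scaling by library totals shifted all transcripts upward, to medians of -0.07 for the 56 and 0.10 over all, and 40 of the 56 were then below 0, against 32.5%. In DESeq2, 48 of the 56 were below 0, against 51.7%. Within pairs the medians of the 56 were -0.17, -0.05 and -0.24, and those of all transcripts were 0.01, 0.00 and 0.01.

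On TMM-scaled values, 34 of the 56 transcripts were lower in all 3 pairs (background 20.3%) and 4 were higher in all 3 (background 20.1%). These and the following backgrounds cover all tested transcripts, and no share was computed for abundant transcripts alone. The 4 higher ones, named after their values were seen, were t15075aep, t24687aep, t26291aep and t25680aep. The 2 groups did not overlap for 5 transcripts that were lower (background 3.85%) and 0 that were higher (background 5.2%). The 5, named after their values were seen, were t6774aep, t19456aep, t6234aep, t27095aep and t37817aep. By library totals 25 of the 56 were lower in all 3 pairs (background 11.3%) and 6 higher (background 29.4%). On that scale 8 transcripts were lower without overlap (background 2.01%), t6234aep not among them, and t25680aep was the 1 higher (background 7.08%). Transcript t6774aep, without overlap on either scale, had 3786, 3802 and 3875 CPM in knockdown and 4100, 3899.9 and 4087 CPM in sibling libraries. Its log2 fold change of -0.16 ± 0.13 was well short of the threshold (adjusted p 0.875 in edgeR, 0.493 with the block).

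**Figure D4:**
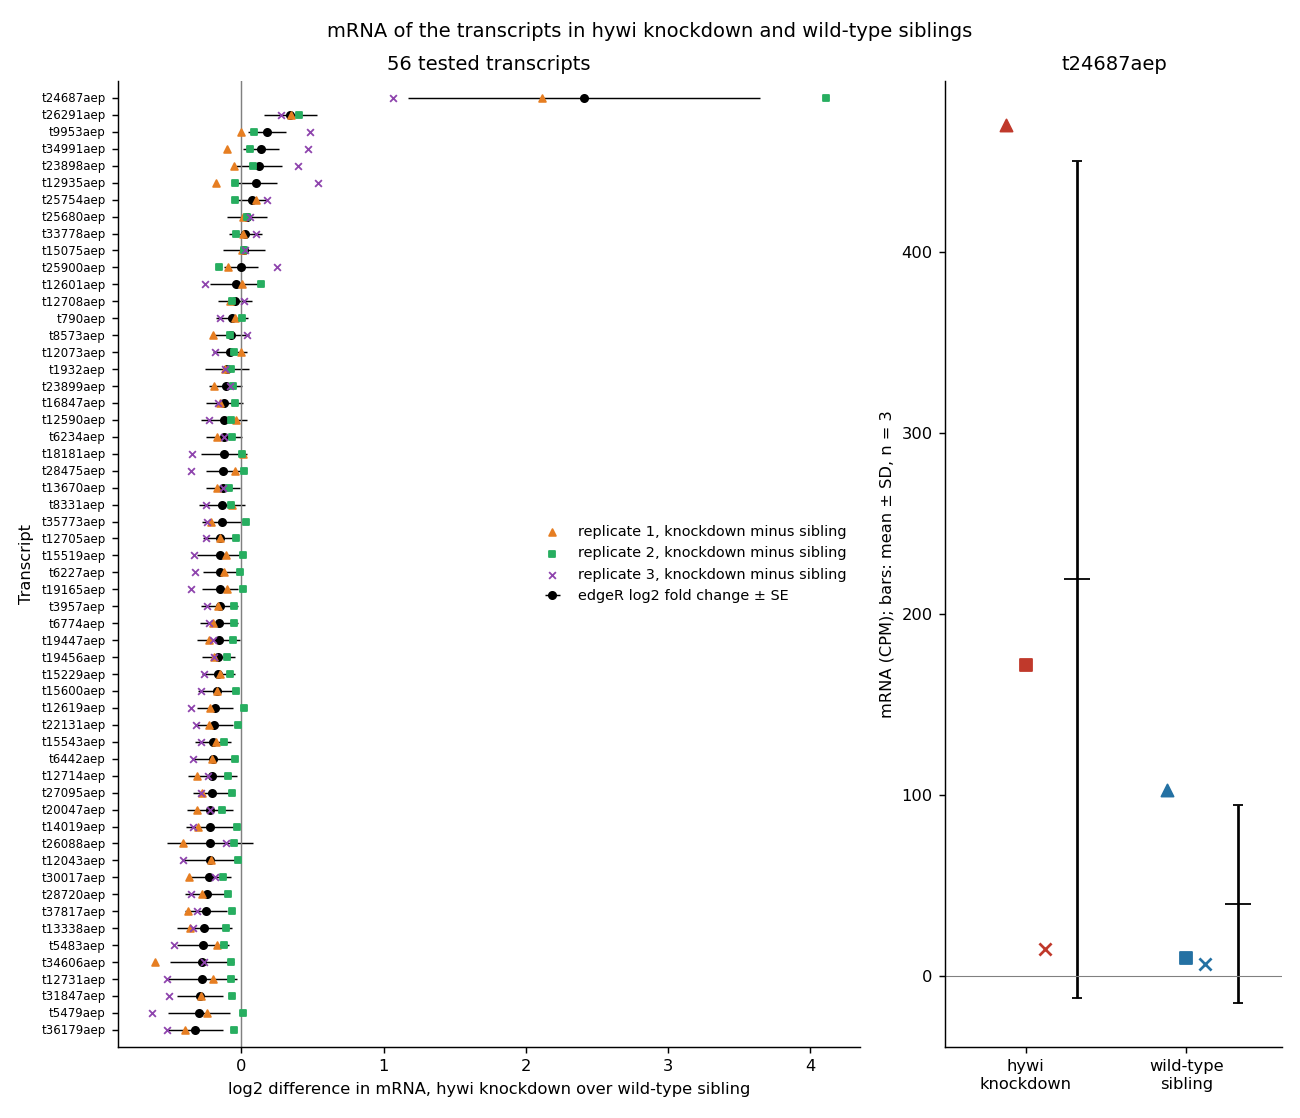
Left, log2 difference in mRNA between hywi knockdown and wild-type siblings for the 56 tested transcripts: black points are edgeR log2 fold changes with SE bars, coloured marks the 3 pairs of same-numbered libraries. Right, mRNA of t24687aep (CPM) in 3 knockdown and 3 sibling libraries with the same marks and with mean ± SD: its knockdown values of 15.0 to 470.3 CPM overlap the sibling values of 6.44 to 103 CPM, and the next highest fold change on the left is that of t26291aep at 0.34.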

How the data were processed

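The authors deposited 3 tables over the same 38747 transcripts and 12 libraries, and all 16 value columns were matched to a library by name (0 left over). The mRNA table holds the authors' estimated counts per library, not normalized, from stranded libraries per the labels' protocols. Per the file headers, the IP and degradome tables hold raw estimated counts, on each strand for small RNA and on the sense strand for the degradome. Values need not be whole, since reads may be divided among transcripts. The submitters' processing notes list Trimmomatic 0.33, RSEM 1.2.31 and Bowtie 1.1.2 for mRNA, and cutadapt, RSEM and Bowtie without versions for the rest; their settings are not given in the sources used here.

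Each IP strand and each degradome library was scaled to CPM by its own total. Ratios used a pseudocount of 1 CPM on the log2 scale, a 4-fold limit, and exact 95% Poisson or conditional binomial intervals that cover counting error only. Floors of 3 counts were not needed for any printed fold. Estimated mRNA counts were rounded and tested, two-sided, with edgeR 4.0.16 in R 4.3.3 (filterByExpr, TMM, quasi-likelihood F test, Benjamini-Hochberg over all transcripts tested, threshold 0.05). The fit holds 3 knockdown and 3 sibling libraries. DESeq2 1.42.0, other scalings, no filter, the replicate block and each library left out were alternatives. The edgeR fits were tested on simulated data. Tables and plots were made with Python 3.11.15, pandas 2.3.3, scipy 1.17.1, numpy 2.4.6 and matplotlib 3.10.9.

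Replicates are numbered 1 to 3 in each mRNA group, and the labels do not explain the numbers. Over 19683 transcripts, same-numbered libraries had correlations of 0.62, 0.27 and 0.30 in their deviation from the group mean, and all other pairs -0.43 to 0.20. Since all 3 exceeded 0.1, libraries were treated as paired by number, on this correlation alone. Knockdown 2 with sibling 3 (0.20) and knockdown 3 with sibling 2 (0.15) exceeded 0.1 as well. This minimum therefore does not separate the pairing of libraries 2 and 3 by number from the swapped one.

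The transcripts, the comparison sets and the tests were chosen with earlier results of these data known. Named by rule were the first 10 transcripts, those nearest the degradome minimum, the 5 highest and 5 lowest by degradome ratio and by sibling mRNA, the 3 highest by Hywi sense and by Hyli antisense, and those called, or else the 3 smallest unadjusted p. This rule gave 31 distinct names.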

Additional observations from a re-analysis of the deposited data

How the results depend on the processing

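Of 131 alternatives computed over all results, 109 kept their direction and side of the threshold or, for counts and medians, stayed close to the main value. Close meant within 1.5 times for counts and within the spread between replicate libraries or pairs for medians. For the median log2 degradome ratio, with 1 library per condition, it meant within counting error. The sizes of single transcripts still moved, as for t24687aep without a sibling or knockdown library (log2 fold change 1.26 to 4.61). Without the replicate block, 0 of the 56 tested transcripts were called in either direction under DESeq2, RLE size factors, library totals, no filter on low counts or any library left out. Over all 19683 transcripts tested, the main edgeR fit without the block called 0.0% in each direction. DESeq2 without the block called 0.0102% higher and 0.00508% lower. The 0 counts in these fits therefore do not set the 56 apart, and no such share was computed for the other settings. With the replicate block, the number higher was 1 with TMM, 1 with RLE size factors, 0 with library totals and 0 with DESeq2. With the block and 1 replicate pair left out (like the other variants of the blocked fit, added after seeing the data), 1 to 2 were higher and 0 to 2 lower (t26291aep higher without pair 3, t36179aep and t5479aep lower without pair 2). For blocked fits other than edgeR with TMM and DESeq2 on all pairs, no share over all tested transcripts was computed. Nothing is read from the numbers called in those fits. The median log2 fold change of the 56 stayed between -0.22 and -0.07. Totals without the 2 largest wild-type transcripts moved the median log2 degradome ratio from 0.16 to -0.53, the number with at least 4-fold less in colchicine-treated animals from 2 to 4, and the median log2 ratio of capless to mRNA CPM from -3.32 to -2.63, because 38.2% of wild-type counts are then left out. The selection itself depends on its limits. A Hyli sense limit of 10 CPM left 10 transcripts, all 10 among the 58, and a degradome minimum of 100 CPM left 5, all 5 among the 58. A Hywi antisense limit of 5 CPM gave 88 and totals without the 2 largest wild-type transcripts gave 99, each holding all 58. Hyli antisense counts reached 1 CPM in the Hyli IPs of both conditions for 26 transcripts and 10 CPM for 3. Depth limits the colchicine degradome, where the minimum is 8.84 counts, and IP and degradome conditions have 1 library each.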
